A study of Oreochromis niloticus with 9 samples.

Results

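The genes described here encode the enzymes that make fatty acids and triacylglycerol in the liver, together with the regulators that act on them. They were chosen by symbol from knowledge of the pathway and not by a cut on measured values, but with earlier results of these data known. Of 11 symbols looked for (fasn, acaca, acacb, acly, aclya, me1, srebf1, mlxipl, thrsp, dgat1a and dgat2), 8 were each found at 1 locus, among 37283 loci in the expression table, and acly, aclya and mlxipl matched none. All 8 passed the filter on low values that left 20575 loci for testing (3 or more libraries with an FPKM of 1 or higher, where FPKM is a fragment count scaled to the length of the transcript and to the size of the library). The samples were livers of juvenile genetically improved farmed tilapia (GIFT, Oreochromis niloticus), a selectively bred strain of Nile tilapia, fed for 8 weeks. By the study's methods, fish were weighed, dissected and bled a day after their last feeding, with no separate time given for the sequenced livers. The levels reported here are therefore not known to be those of recently fed fish. The control group, C, ate a basal diet with 0% apple peel powder. The APE_A group ate that diet with 0.2% of the powder and the APE_H group ate it with 0.8%, the powder taking the place of cellulose. Cellulose thus fell as the powder rose, and their effects cannot be told apart here. Each group had 3 libraries, and by the study's methods each library was a pool of 5 fish from a tank, so the spread reported here is between pools and not between fish.

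De novo lipogenesis turns surplus carbohydrate into fat. Citrate leaves the mitochondrion and ATP citrate lyase (acly) splits it to give acetyl-CoA, which acetyl-CoA carboxylase (acaca, acacb) converts to malonyl-CoA. Fatty acid synthase (fasn) then builds palmitate from both, using NADPH that malic enzyme (me1) and the pentose phosphate pathway regenerate, and the diacylglycerol acyltransferases (dgat1a, dgat2) close the route by adding the last acyl chain of triacylglycerol. In mammals, the transcription factors encoded by srebf1 and mlxipl carry insulin and glucose signals to these genes, and thrsp (Spot 14) encodes a small protein that rises with them. In fish, as in mammals, the liver is a main site of this synthesis.

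One APE_H library stood apart from all others, and differences that involve APE_H are therefore given with and without it. In APE_H3 the mean log2(FPKM + 1) over 31 hepatocyte marker loci was 5.08, against 8.93 to 10.01 in the other 8 libraries, and all 31 were lower there than the median of the other 8, by 23.5-fold at the median. Exocrine pancreas markers, which this fish carries in its hepatopancreas, were lower too, at 4.39 against 6.41 to 9.51. Erythroid markers averaged 6.34 against 2.84 to 4.85, and lymphoid markers 3.40 against 1.44 to 2.97. Among the other libraries, APE_A2 had the lowest exocrine pancreas mean (6.41). Correlations across genes between APE_H3 and each other library ran from 0.41 to 0.557, against 0.624 to 0.756 among the rest. The mean of 4 adipocyte markers was 3.89 against 4.40 to 4.87, with cidec and aqp7 lower there than the median of the other 8 and fabp11a and lipea higher. Myeloid markers averaged 3.65 against 3.61 to 4.43, but this mean hid a split. Of 16 myeloid loci, 10 were higher in APE_H3 than the median of the other 8 and 6 were lower. Among the lower was a lyz locus (XLOC_004326), at 112.33 FPKM against 2303.22 to 6385.34. Over all 20575 loci tested, 10259 were lower in APE_H3 than the median of the other 8 and 9883 were higher. The expression values came without read counts per locus. The study lists mapped reads for each library, and the number for APE_H3 lay within the range of the other 8.

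The lipogenic genes spanned a wide range of levels in FPKM, a unit that allows comparison between genes because it is per length. By the median over the 9 libraries the order was thrsp (258 FPKM), dgat2 (49.2), me1 (8.04), acacb (3.54), dgat1a (3.12), acaca (3.08), srebf1 (1.89) and fasn (0.92), and the order was the same over the 8 libraries without APE_H3 (273 FPKM for thrsp to 1.01 for fasn). The ranges of neighbours in this order overlapped across the 9 libraries at every step. Without APE_H3, the lowest dgat2 value (37.49) lay above the highest me1 value (27.95), and no other neighbours separated. The levels of acacb, dgat1a and acaca cannot be ranked within their spread. Among all loci tested, thrsp stood at the 95.9th percentile and dgat2 at the 89.1th (medians over all 9 libraries), whereas fasn stood at the 17.1th. By these medians the transcript of the palmitate-building enzyme was among the weaker ones tested, and that of an enzyme that finishes triacylglycerol was among the stronger. Across single libraries, fasn ran from the 7.8th to the 53.5th percentile and dgat2 from the 30.4th to the 91.1th.

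**Figure D1:**
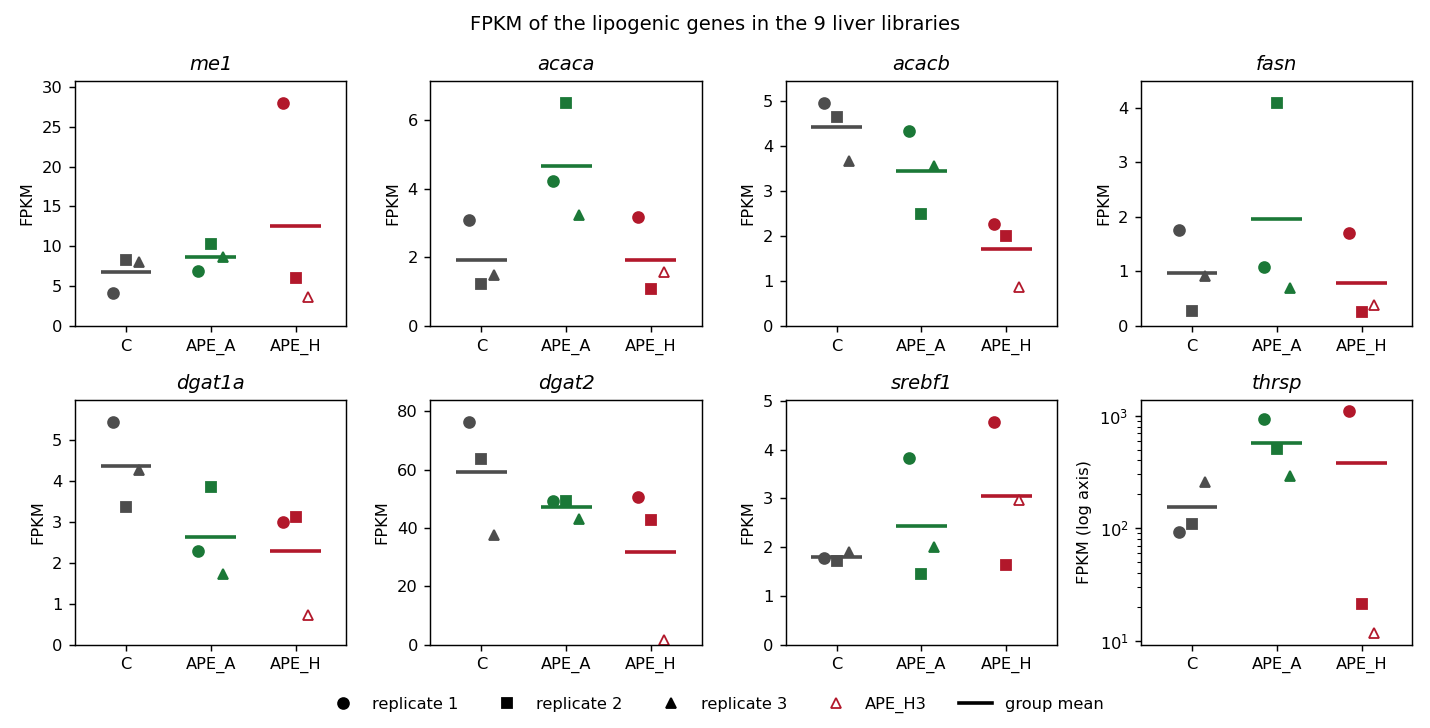
FPKM of each lipogenic gene (vertical axes, 1 panel per gene, log axis for thrsp only) in the 3 libraries of each diet; symbols mark the replicate number, horizontal lines the group means, and the open triangle APE_H3. The 3 APE_A values of acaca (3.25 to 6.50 FPKM) lie above all C values, the 3 APE_H values of acacb (0.87 to 2.27) lie below all C values, and dgat2 in APE_H3 (1.49) lies far below its other 8 values.

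The precursors come first. The gene me1 (XLOC_022913, scaffold GL831268.1, 807469 to 859961; coordinates as the table gives them, on a build that is not given in the sources used here) encodes cytosolic malic enzyme, which yields NADPH for chain building. Its FPKM was 4.12, 8.25 and 8.04 in C1 to C3, 6.93, 10.26 and 8.71 in APE_A1 to APE_A3, and 27.95, 5.97 and 3.58 in APE_H1 to APE_H3. The groups overlapped, and APE_H held both the highest and the lowest value of the 9. Group means were 6.80 ± 2.33 for C, 8.63 ± 1.67 for APE_A and 12.5 ± 13.4 for APE_H (SD, n = 3), so the APE_H mean was carried by APE_H1. On the log2(FPKM + 1) scale, on which every fold change here is given and which understates changes of low genes, APE_H minus C was 0.37 (SE 0.66). It became 0.91 without APE_H3 and -0.42 without APE_H1.

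No locus carried the symbol of acly or aclya. A locus named aclyb (XLOC_006483), which was looked at after its values were seen, gave between 0.49 and 1.64 FPKM in all 9 libraries. Its group ranges overlapped, at 0.63 to 1.13 FPKM in C, 0.49 to 1.18 in APE_A and 0.79 to 1.64 in APE_H.

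The acetyl-CoA carboxylases set the pace of the route. Both had diet groups that did not overlap in some comparison, as did dgat1a and thrsp. With 9 libraries, 4.69% to 7.45% of all loci separated in each direction of a comparison. The share of all loci that separated in any comparison was not counted. In mammals the acaca product is the cytosolic enzyme of fatty acid synthesis, whereas the acacb product sits at the mitochondrion, where its malonyl-CoA holds back fatty acid oxidation. For acaca (XLOC_018549, GL831223.1, 1871361 to 1903051), FPKM was 3.08, 1.22 and 1.48 in C, 4.24, 6.50 and 3.25 in APE_A, and 3.17, 1.07 and 1.57 in APE_H. Every APE_A library was above every C and every APE_H library, and the C and APE_H values lay over each other. The group means were 1.93 ± 1.01, 4.66 ± 1.67 and 1.94 ± 1.1 (SD, n = 3). The log2 fold change was 0.96 (SE 0.38) for APE_A minus C, with an unadjusted p of 0.0357 and an adjusted p of 1 by limma with Benjamini-Hochberg adjustment over all loci tested. For APE_H minus APE_A it was -0.97 (SE 0.38, limma adjusted p = 0.429), or -0.91 without APE_H3 (adjusted p = 0.567). For APE_H minus C it was -0.0060, or 0.06 without APE_H3.

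For acacb (XLOC_020414, GL831238.1, 1766378 to 1795720), FPKM was 4.94, 4.64 and 3.66 in C, 4.32, 2.48 and 3.54 in APE_A, and 2.27, 2.0 and 0.87 in APE_H. All 3 APE_H values were below all values of C and of APE_A, with or without APE_H3. Group means were 4.41 ± 0.67, 3.45 ± 0.92 and 1.71 ± 0.74 (SD, n = 3). The log2 fold change for APE_H minus C was -1.03 (SE 0.29) with an unadjusted p of 0.00851, the lowest p of any lipogenic gene, and did not pass after adjustment (limma adjusted p = 0.487). Without APE_H3 it was -0.78 (SE 0.25, limma adjusted p = 0.518). APE_H minus APE_A was -0.73 (limma adjusted p = 0.435), or -0.48 without APE_H3. In a bulk library, fewer cells of a type and less RNA per cell cannot be told apart. Setting each library relative to its hepatocyte marker mean shifts all loci of a comparison by the same amount, and moved their median to 1.29 against C and 1.37 against APE_A. On that scale acacb was at 0.29 and 0.62 and acaca in APE_H minus APE_A at 0.38. A constant shift keeps each locus on its side of the median, so these values add nothing on how a gene stood among all loci. The shift rested on APE_H3: the hepatocyte mean was 10.01, 9.01 and 5.08 in APE_H1 to APE_H3, against 8.93 to 9.64 in C.

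The FPKM ratio of the carboxylases was also taken within each library. The ratio of acaca to acacb was 0.62, 0.26 and 0.40 in C, 0.98, 2.62 and 0.92 in APE_A, and 1.40, 0.54 and 1.80 in APE_H. All APE_A ratios exceeded all C ratios, and APE_H overlapped both. This ratio was formed after the values of both genes were seen and was not tested.

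Fatty acid synthase was low and variable. For fasn (XLOC_023760, GL831279.1, 1794191 to 1823688), FPKM was 1.75, 0.27 and 0.92 in C, 1.09, 4.08 and 0.69 in APE_A, and 1.71, 0.25 and 0.39 in APE_H. All 3 groups overlapped, and the range from lowest to highest value within each was wider than any difference between group means. Group means were 0.98 ± 0.74, 1.95 ± 1.85 and 0.78 ± 0.81 (SD, n = 3). APE_A2 alone held the APE_A mean up: the log2 fold change of APE_A minus C was 0.47 (SE 0.52) with it and -0.0049 without it. For APE_H minus C it was -0.17, or -0.035 without APE_H3, and for APE_H minus APE_A it was -0.64, or -0.51 without APE_H3.

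The acyltransferases differed from each other in level by more than 10-fold in 7 libraries, and in how they stood in APE_H3. For dgat1a (XLOC_009695, GL831161.1, 5281745 to 5294906), FPKM was 5.44, 3.35 and 4.27 in C, 2.29, 3.85 and 1.72 in APE_A, and 2.99, 3.12 and 0.73 in APE_H. The APE_H values were all below the C values, and APE_A overlapped both. The log2 fold change was -0.59 (SE 0.40) for APE_A minus C and -0.79 (SE 0.40, limma adjusted p = 0.667) for APE_H minus C. Without APE_H3 the latter was -0.38. Relative to the hepatocyte markers it was 0.52, where the same constant shift moved the median of all loci to 1.29.

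For dgat2 (XLOC_032773, GL831477.1, 387743 to 398161), FPKM was 76.46, 63.57 and 37.49 in C, 49.21, 49.22 and 43.11 in APE_A, and 50.65, 42.84 and 1.49 in APE_H. The groups overlapped, and 8 of the 9 values lay between 37.49 and 76.46. The log2 fold change of APE_H minus C was -1.70 (SE 1.08, limma adjusted p = 0.694) with APE_H3 and -0.28 (SE 0.36) without it. APE_H minus APE_A was -1.43 with it and -0.015 without it. The ratio of dgat2 to dgat1a in FPKM ran from 8.78 to 25.1 in the other 8 libraries and was 2.04 in APE_H3.

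Of the regulators, srebf1 (XLOC_022088, GL831257.1, 2200217 to 2215473) encodes SREBP-1, the sterol regulatory element binding protein that drives fatty acid synthesis genes in mammals. Its FPKM was 1.78, 1.71 and 1.89 in C, 3.83, 1.45 and 2.01 in APE_A, and 4.57, 1.63 and 2.97 in APE_H. The C libraries were close together (1.79 ± 0.09, SD, n = 3), while each supplemented group held a value below all of them and at least 1 above. It was the only lipogenic gene whose APE_H3 value was above the median of the other 8 libraries, at 1.62 times that median. The log2 fold change was 0.24 for APE_A minus C and 0.47 (SE 0.35) for APE_H minus C, or 0.45 without APE_H3. The former was -0.04 without APE_A1.

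The thrsp gene (XLOC_018185, GL831218.1, 1666666 to 1674042) was the most abundant and the most variable. Its FPKM was 92.38, 109.99 and 257.97 in C, 930.34, 507.34 and 288.09 in APE_A, and 1106.72, 21.10 and 11.62 in APE_H. All APE_A values were above all C values, while APE_H held the highest value of the 9 and the lowest pair. The highest value was 95.2 times the lowest, and 52.5 times without APE_H3, because APE_H2 was also low. Group means were 153 ± 90.9, 575 ± 326 and 380 ± 630 (SD, n = 3). The log2 fold change was 1.89 (SE 1.57, limma adjusted p = 1) for APE_A minus C. For APE_H minus C it was -1.04, which became 0.17 without APE_H3 and -3.06 without APE_H1, so the sign rested on single pools. For APE_H minus APE_A it was -2.93 (limma adjusted p = 0.499), or -1.72 without APE_H3.

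**Figure D2:**
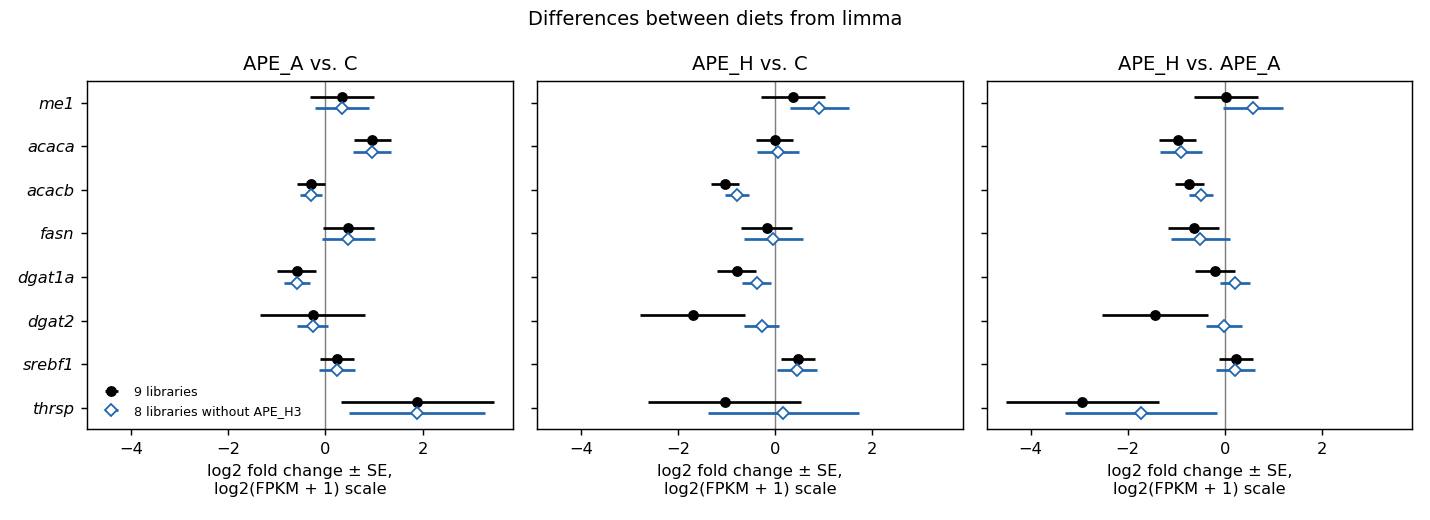
Log2 fold change with its SE from limma (horizontal axis, log2(FPKM + 1) scale) for each lipogenic gene in the 3 comparisons, over all 9 libraries (filled circles) and without APE_H3 (open diamonds). The dgat2 difference between APE_H and C moves from -1.70 to -0.28 when APE_H3 is left out, and acacb moves from -1.03 to -0.78; relative to hepatocyte markers acacb is at 0.29, where the median of all loci is 1.29.

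No lipogenic gene was called in any comparison, a call being an adjusted p under 0.05 by limma and a log2 fold change of at least 1 in size. Over all loci tested, 0.0972% were called in APE_A against C, 0.122% in APE_H against C and 0.136% in APE_H against APE_A, or 0.0875%, 0.267% and 0.287% without APE_H3. At an unadjusted p under 0.05 there was 1 of 8 in APE_A against C (acaca), where 3.4% of all loci were below that value (5.25% without APE_H3). There was 1 of 8 in APE_H against C (acacb), beside 7.58% of all loci (7.62% without APE_H3). In APE_H against APE_A there were 2 of 8 (acaca and acacb), beside 10.9% of all loci, and 0 of 8 without APE_H3, beside 9.8%. With so few genes these counts cannot be set apart from the background. In the moderated F test over the 3 diets, acacb had an unadjusted p of 0.0221 (limma adjusted p = 0.570) and acaca one of 0.0548 (limma adjusted p = 0.648), and 0.185% of all loci passed after adjustment (0.335% without APE_H3). At an unadjusted p under 0.05 only acacb was below in that test, with all 9 libraries (7.73% of all loci) and without APE_H3 (8.29% of all loci).

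Counted by whether the groups overlapped, 2 of 8 genes were higher in all APE_A than in all C libraries (acaca and thrsp), beside 4.69% of all loci, and 0 of 8 were lower, beside 6.34%. In APE_H against C, 2 of 8 were lower in all libraries (acacb and dgat1a), beside 7.02%, and 0 were higher, beside 5.91%. In APE_H against APE_A, 2 of 8 were lower (acaca and acacb), beside 7.06%, and 0 were higher, beside 7.45%. Without APE_H3, the same genes separated in each comparison, beside 11.8% of all loci lower in APE_H than in C and 11% lower than in APE_A, while 10.6% and 13.1% of all loci were higher. The median log2 fold change of the 8 genes was 0.29 in APE_A minus C, where that of all loci was -0.05. For APE_H minus C it was -0.48 beside -0.03, and without APE_H3 it was 0.01 beside -5e-04. In APE_H minus APE_A the median of the 8 genes was -0.69 beside 0.02, and without APE_H3 it was -0.25 beside 0.05. Relative to the hepatocyte markers, a constant shift that left the order of the loci unchanged, APE_H minus C was 1.15 for fasn and 0.28 for thrsp (median of all loci 1.29). The 3 comparisons share groups with each other, so their values are not independent.

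The size of the APE_H3 departure differed between genes. Of the 8 genes, 7 were lower in APE_H3 than the median of the other 8 libraries, beside 10259 of 20575 loci tested. The other was higher, beside 9883 of all loci. Relative to the median of the other 8 libraries, FPKM in APE_H3 was 33.0-fold lower for dgat2 and 23.5-fold lower for thrsp, both within the range of the 31 hepatocyte markers, whose ratios to the other libraries lay between 0.028 and 0.0637. It was 4.43-fold lower for dgat1a, 4.14-fold for acacb, 2.58-fold for fasn, 2.28-fold for me1 and 1.99-fold for acaca. These 5 ratios, from 0.226 to 0.502, and that of srebf1 (1.62), all lay above the highest hepatocyte marker ratio. All are ratios of FPKM as listed, and their size depends on that scale. Summed FPKM over all loci was 1226503.1 in APE_H3 against 1941494.3 to 2631531.7 in the other 8 libraries. The cases of dgat2 and thrsp were unlike. In APE_H2, where the hepatocyte mean was 9.01, thrsp was also low at 21.10 FPKM, while dgat2 was at 37.49 FPKM or more in all of the other 8 libraries. Of 9 erythroid marker loci that passed the filter, 8 were higher in APE_H3 than the median of the other libraries, with a median ratio of 11.2. The globin locus hbae3 that passed (XLOC_006874) was at 14.67 FPKM in APE_H3 against 0.37 to 2.73. Another hbae3 locus (XLOC_006711), which did not pass, went the other way, at 0.0 FPKM in APE_H3 and 47.12 in APE_H1. All 12 lymphoid marker loci were higher in it than the median of the other 8 libraries, though not all were above every other library. Whether cell makeup accounts for any of these differences was not tested.

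**Figure D3:**
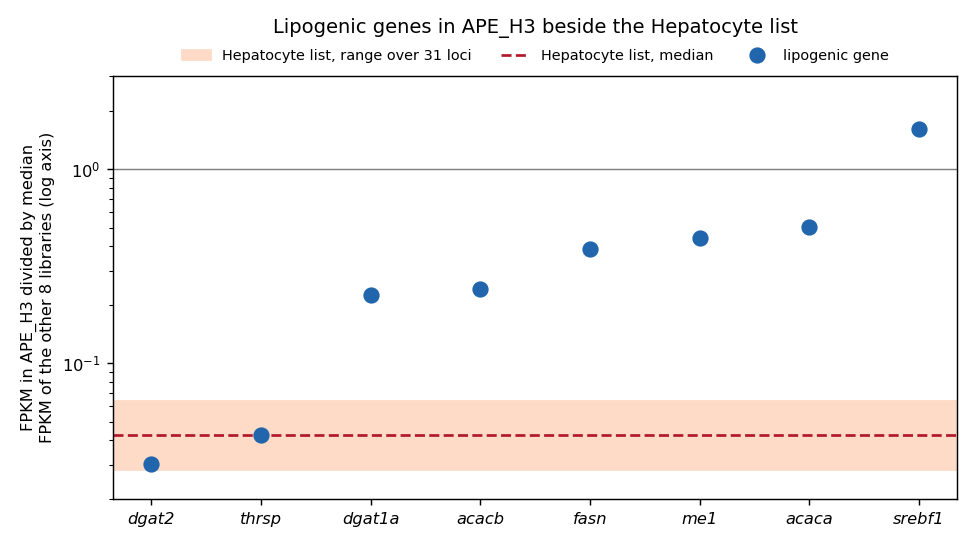
FPKM in APE_H3 divided by the median FPKM of the other 8 libraries (vertical log axis) for each lipogenic gene, beside the range (band) and median (dashed line) of the same ratio over 31 hepatocyte marker loci. The dgat2 (0.0303) and thrsp (0.0426) points lie in the hepatocyte band, and the other 6 lie above it, with srebf1 at 1.62. Unlike dgat2, thrsp was also low in APE_H2 (21.10 FPKM).

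Across libraries, fasn and acaca varied together. Pearson's r on the log2(FPKM + 1) scale was 0.87 (Spearman's rho 0.77) over 9 libraries, 0.85 over the 8 without APE_H3, and 0.68 over 7 when APE_A2 and APE_H2, the libraries with the most extreme fasn values, were left out. The points come from 3 diets and share any difference in library makeup, so these are descriptions. The other genes had lower coefficients with fasn over 9 libraries, namely thrsp 0.61, dgat1a 0.45, me1 0.37, dgat2 0.33, acacb 0.13 and srebf1 -0.0060. Without APE_H3 these were thrsp 0.56, dgat1a 0.34, me1 0.27, dgat2 0.16, acacb -0.17 and srebf1 0.07. Among 4547 loci with a symbol and a mean of at least 5 FPKM, the patterns closest to fasn were those of gtf2e2 (r = 0.87), which encodes a subunit of a general transcription factor, mtx1b (0.84), tial1 (0.84), mrpl10 (0.84) and cs (0.84), which encodes citrate synthase. Without APE_H3 the closest were gtf2e2 (0.89), tecrb (0.87), clptm1l (0.87), picalmb (0.87) and foxd5 (0.87); tecrb is annotated as an enoyl-CoA reductase of fatty acid elongation.

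**Figure D4:**
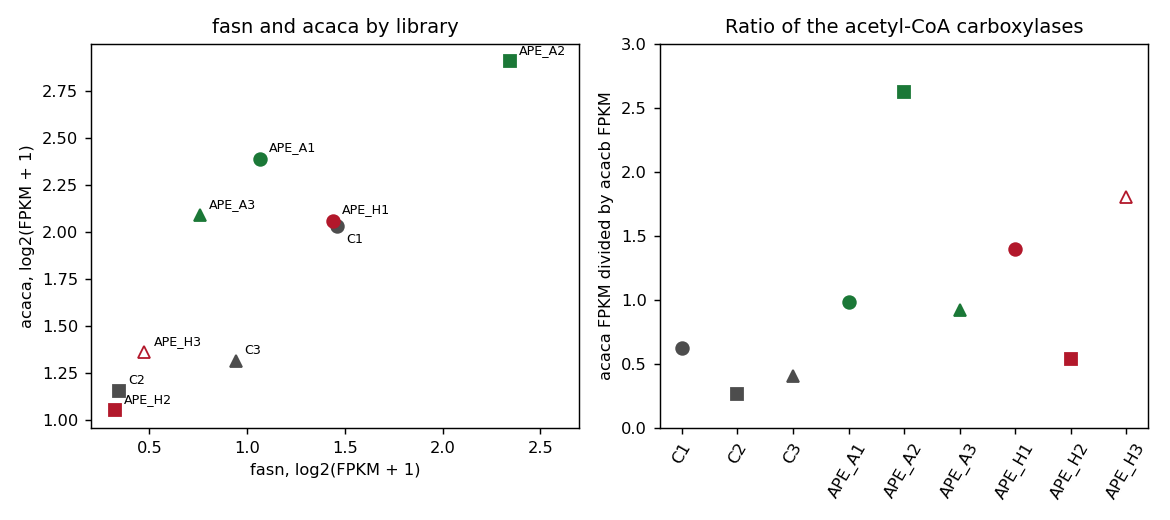
Left, acaca against fasn by library (both axes log2(FPKM + 1)); right, the FPKM ratio of acaca to acacb in each library. Color marks the diet and the symbol the replicate number, with APE_H3 open; APE_A2 is highest on both left axes, and its ratio (2.62) is the highest on the right.

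The neighbouring steps of the route were described with lists of genes of known role. For acetyl-CoA and NADPH supply, 18 of 23 loci passed the filter and none was called in any comparison by limma. The largest rise of this list against C in both supplemented groups was tktb, a transketolase of the pentose phosphate pathway, but C2 was listed at 0 for it while C1 was at 195.65 and C3 at 139.67 FPKM. The list of glucose and fructose feed, 9 of 12 loci, had 5 members above 0 in APE_A minus C and 0 in APE_H minus C, or 5 without APE_H3, while 44.9%, 48.3% and 49.8% of all loci tested were above 0. Of the hepatocyte markers, 0 of 31 were above 0 in APE_H minus C, or 18 without APE_H3.

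In elongation and desaturation, 12 of 19 loci passed and none was called. One of the fads2 loci (XLOC_004890), which encode a fatty acid desaturase, was at 163.74, 181.15 and 136.15 FPKM in C, 469.93, 510.60 and 282.99 in APE_A, and 443.91, 77.63 and 22.22 in APE_H. All APE_A values were above all C values, as at 4.69% of all loci, with a log2 fold change of 1.35 (limma adjusted p = 1). At the other fads2 locus that passed (XLOC_004889) these groups overlapped, with a log2 fold change of 0.63. It was at 73.83, 85.06 and 39.13 FPKM in C, 172.31, 88.02 and 60.55 in APE_A, and 142.18, 106.83 and 7.33 in APE_H. Its log2 fold change of APE_H minus C was -0.34, or 0.96 without APE_H3. The locus of scdb, shared with trmt2b so that reads of both cannot be told apart, was at 2.77, 1.43 and 220.35 FPKM in C, 22.58, 4.46 and 22.12 in APE_A, and 0.55, 0.21 and 0.87 in APE_H. All APE_H values were below 1 FPKM and below all other values. Of all loci, 7.02% were lower in all APE_H than in all C libraries, and 7.06% than in all APE_A libraries. The log2 fold change of APE_H minus C was -3.06 (limma adjusted p = 0.667), or -3.21 without APE_H3, with C3 holding most of the C mean. The scd locus (XLOC_006572) was far more abundant, at 3939.56, 4492.14 and 2537.74 FPKM in C and 4622.84, 7492.04 and 3486.01 in APE_A. In APE_H scd was at 4967.07, 619.27 and 85.78 FPKM, which overlapped both. Its log2 fold change of APE_H minus C was -2.46, or -1.02 without APE_H3. Of triacylglycerol assembly and storage genes, 12 of 28 passed, none was called, and agpat5, an acyltransferase of phosphatidic acid synthesis, was the largest rise in APE_H. It gave 4.93, 9.38 and 6.62 FPKM in C, 9.77, 5.12 and 6.85 in APE_A, and 17.78, 10.02 and 35.35 in APE_H, with a log2 fold change of 1.33 against C (limma adjusted p = 0.598), or 0.89 without APE_H3.

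Among other regulators of lipogenesis, 34 of 37 loci passed and none was called. The largest rise in APE_H was mid1ip1l, a relative of thrsp whose mammalian homologue binds acetyl-CoA carboxylase, at 3.21, 2.36 and 1.07 FPKM in C, 1.24, 0.57 and 1.07 in APE_A, and 3.25, 9.73 and 28.08 in APE_H. All APE_H values were above all others, narrowly so for APE_H1 (3.25 against 3.21 in C1). Of all loci, 5.91% were higher in all APE_H than in all C libraries, and 7.45% than in all APE_A libraries. This gene was named because its rise was the largest of its list. The log2 fold change against APE_A was 2.50 (limma adjusted p = 0.294), or 1.80 without APE_H3 (limma adjusted p = 0.330). Within APE_H the order of mid1ip1l across libraries was the reverse of that of thrsp. It was also the reverse of that of the hepatocyte marker mean (10.01, 9.01 and 5.08 in APE_H1 to APE_H3). With 3 libraries this order is a description only. The largest fall in APE_H against C was prkaa1, a catalytic subunit of AMP-activated protein kinase, which phosphorylates and inhibits acetyl-CoA carboxylase. It was at 10.76, 8.25 and 6.71 FPKM in C, 5.65, 9.81 and 9.51 in APE_A, and 4.97, 3.89 and 3.85 in APE_H, a log2 fold change of -0.86 (limma adjusted p = 0.591), or -0.80 without APE_H3. The other catalytic subunit gene, prkaa2, was at 0.73, 1.68 and 1.89 FPKM in C and 0.92, 2.62 and 9.68 in APE_H. Its log2 fold change against C was 0.82, or 0.15 without APE_H3. The largest rise in APE_A against C was cebpa, a transcription factor of hepatocytes and adipocytes, at 16.77, 11.07 and 8.49 FPKM in C and 27.74, 20.03 and 35.49 in APE_A, a log2 fold change of 1.15 (limma adjusted p = 1), and it was at 28.64, 5.20 and 3.30 in APE_H. The largest fall in that comparison was insig1, whose product retains SREBP in the endoplasmic reticulum, at 334.01, 253.49 and 27.76 FPKM in C, 18.83, 100.29 and 123.84 in APE_A, and 384.47, 430.05 and 25.66 in APE_H, with groups that overlapped.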

How the data were processed

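The deposited FPKM table gave the values for 9 libraries of 3 diets. The study's methods describe TopHat mapping to the Nile tilapia genome and Cufflinks. The submitters' processing notes list Bowtie 0.12.2, HISAT2 2.0, StringTie 1.3.0 and a mouse build named mm8, which conflicts with the methods, so which of these made the table is not known here. The genome build is not given in the sources used here. FPKM is normalized to library total and locus length, and no read counts were used. A locus was kept where 3 or more libraries had an FPKM of 1 or higher, which left 20575 of 37283. limma 3.58.1 in R 4.3.3 was fitted to log2(FPKM + 1) with 1 mean per diet and an intensity trend over all 9 libraries, with Benjamini-Hochberg adjustment over all loci kept. A call needed an adjusted p under 0.05 and an absolute log2 fold change of at least 1. The procedure was checked on simulated data. Named genes of neighbouring lists were, per list and comparison, the largest rise and the largest fall among loci of mean FPKM of at least 5. Another locus of the same gene or family was added beside fads2, scdb and prkaa1. Members and lists were chosen with earlier results of these data known. Libraries are pools of 5 fish of a tank, so p-values measure spread between pools. Marker lists of the hepatocyte, exocrine pancreas, adipocyte, erythroid, lymphoid and myeloid classes were used to describe library makeup. Alternatives covered the pseudocount, the filter, the scaling, the libraries fitted, a replicate block and leaving out each library. Some genes that this rule picks are not reported here.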

Additional observations from a re-analysis of the deposited data

How the results depend on the processing

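Of 489 alternative values of the 24 gene results, 460 kept their direction and their side of the threshold, 28 changed sign and 1 (acacb in APE_H against C, at an unadjusted p with the fold threshold, 1 gene called) passed. A filter at FPKM 5 left out 5 of the 8 genes, which had no value under it. The lowest adjusted p among them was 0.0646 (thrsp in APE_H against APE_A without APE_H1).

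The number of loci called was 20, 25 and 28 in APE_A against C, APE_H against C and APE_H against APE_A, and 38 in the F test. With a pseudocount of 0.01 it was 42, 38, 53 and 68. Relative to the hepatocyte list it was 0, 8, 10 and 15. With only the groups compared, APE_A against C gave 35 and APE_H against APE_A gave 57. At an unadjusted p with the fold threshold it was 522, 1131 and 1624, and the F test at an unadjusted p alone gave 1590. Leaving out 1 library at a time gave 12 to 26, 18 to 55, 5 to 59 and 16 to 69. With the replicate number as a block it was 7, 8, 3 and 9. Same-numbered libraries showed little shared deviation (correlations from -0.07 to 0.13), and 4 of 9 libraries were nearest their own number. With 3 libraries per group, these values cannot exclude a pairing by number.

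Signs that turned were those of me1 in APE_H minus APE_A (-0.0114 with a pseudocount of 0.1, -0.0167 with 0.01 and -0.0912 by quantile normalization) and of acaca in APE_H minus C (0.0143 by median-ratio scaling, 0.027 by quantile normalization). Relative to the hepatocyte list, which shifts all loci of a comparison alike (median 1.29 in APE_H minus C and 1.37 in APE_H minus APE_A), APE_H minus C was 1.15 for fasn, 1.31 for acaca, 0.29 for acacb, 0.28 for thrsp and 0.52 for dgat1a, and APE_H minus APE_A was 0.71 for fasn, 0.38 for acaca, 0.62 for acacb and 1.15 for dgat1a. Leaving out 1 library at a time, fasn ran from -0.0049 to 0.79 in APE_A minus C and from -0.52 to 0.10 in APE_H minus C, acaca from -0.29 to 0.26 in APE_H minus C, srebf1 from -0.0402 to 0.45 in APE_A minus C and from -0.0261 to 0.52 in APE_H minus APE_A, me1 from -0.42 to 0.91 in APE_H minus C and from -0.76 to 0.58 in APE_H minus APE_A, dgat1a from -0.42 to 0.21 in APE_H minus APE_A, and thrsp from -3.06 to 0.17 in APE_H minus C. The causes of the other turns were not tested. Summing the loci of a symbol gave nothing to try, since each gene had 1 locus.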
